A study of Homo sapiens with 24 samples.

Results

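The 10 genes described here are the E2F transcription factors E2F1 to E2F8 and the pocket protein genes RB1 and RBL1. E2F factors bind promoters of genes needed for S phase, mostly as dimers with a DP protein. E2F1, E2F2 and E2F3 are the activators, E2F4, E2F5 and E2F6 the canonical repressors, and E2F7 and E2F8 the atypical repressors, which bind without a DP partner. RB1, the retinoblastoma protein, holds the activators in check until cyclin-dependent kinases phosphorylate it, and RBL1 (p107) binds E2F4 in repressor complexes. E2F6 does not bind pocket proteins and works with Polycomb proteins in the PRC1.6 complex, which is known for silencing germline genes. The members were found by matching the gene identifiers of the count tables to these symbols, which gave 10 genes of 58735 in all. Coordinates are those of hg38.

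The cells were HCT116, a human colorectal carcinoma line, carrying OsTIR1 under a doxycycline-inducible promoter. OsTIR1 is a plant F-box protein that, with auxin, marks proteins fused to an auxin-inducible degron (AID) for destruction. The degron was fused to UHRF1, which reads hemimethylated DNA and recruits maintenance methylation (the UHRF1-AID line), to DNMT1, the maintenance DNA methyltransferase (the DNMT1-AID line), or to both (UHRF1-AID/DNMT1-AID, hereafter the double-degron line). Cells with OsTIR1 and no degron were the wild type (WT). Each line was collected before auxin (day 0) and after 4 days of auxin with doxycycline, following 1 day of doxycycline with the OsTIR1 inhibitor auxinole, and WT cells were treated in the same way. This gave 8 groups of 3 polyadenylated RNA libraries, 24 in all. The methods of the study describe the replicates of the degron lines as independent clones, but the labels tie no replicate number to a clone, so the p-values below measure the spread between these libraries.

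The count tables held 15824804 to 25073821 counts on genes per library, with 18630957 to 25073821 at day 0 and 15824804 to 19991383 at day 4. Their headers placed 15 libraries (all of day 0 and UHRF1-AID at day 4) in 1 alignment folder and the other 9 day 4 libraries in another, and only those 9 held counts on spike-in RNA. The day effects of WT, DNMT1-AID and double-degron cells, UHRF1-AID against WT or DNMT1-AID at day 4, and the test of whether the day effect of UHRF1-AID cells differs from that of WT, therefore cannot be told apart from the folder. The day effect in UHRF1-AID cells and the other day 4 comparisons lie within a folder, and WT, DNMT1-AID and double-degron libraries share a folder on each day. Of 7 colon epithelial markers, 6 exceeded 10 CPM (counts scaled to a common library total) in every library, and VIL1 stayed under 1 CPM. The leukocyte, fibroblast and hepatocyte markers PTPRC, COL3A1 and ALB stayed under 1 CPM and the endothelial marker PECAM1 at or under 1.46 CPM. The other fibroblast marker, the collagen gene COL1A1, was over 1 CPM in every library and was higher at day 4 in double-degron cells (15.1 to 19.3 CPM) than in WT (3.32 to 8.54 CPM), by 1.64 on the log2 scale (adjusted p = 0.00278, edgeR). The 5 markers of other cell types summed to 16.8 to 20.3 CPM in double-degron, 9.22 to 14.3 in DNMT1-AID, 4.71 to 11.5 in UHRF1-AID and 3.38 to 8.96 in WT libraries at day 4, and to 1.56 to 6.81 CPM in all libraries at day 0, against 3952.6 to 8180.4 CPM for the 7 epithelial markers. The part of COL1A1 in the results below was not tested. UHRF1 mRNA averaged 170.7 CPM in UHRF1-AID and 73.7 CPM in WT cells at day 0, and 52.7 and 25.2 CPM at day 4. DNMT1 mRNA averaged 44.7 CPM in DNMT1-AID and 142.7 CPM in WT cells at day 0, and 15.2 and 30.9 CPM at day 4. Because the degron acts on the protein, these transcripts do not check the depletion.

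Several E2F genes are known targets of E2F factors, so the 250 bases before the RefSeq start of each member were searched for 8 words of the E2F recognition sequence (TTTCCCGC, TTTCCCGG, TTTCGCGC, TTTCGCGG, TTTGCCGC, TTTGCCGG, TTTGGCGC and TTTGGCGG) on both strands. Of 35116 RefSeq promoter windows of that length (GRCh38.p14), 1835 (5.23%) held at least 1 word and 101 (0.288%) at least 2. Among the 8 members with an entry, E2F1 held 3 matches and E2F2, E2F3, E2F6 and RBL1 held 2 each, whereas E2F4, E2F7 and RB1 held none. The RB1 entry lies 172724 bases from the start in the count tables, at an alternative start. A second E2F3 entry held none. E2F5 and E2F8 had no entry. A match describes letters, not binding. The windows of the 3 activators, of RBL1 and of the repressors E2F4 and E2F6 are printed 5′ to 3′ on the strand of the gene, because these genes carry the differences below, with matches in capitals.
E2F1, chr20:33686386-33686635, minus strand: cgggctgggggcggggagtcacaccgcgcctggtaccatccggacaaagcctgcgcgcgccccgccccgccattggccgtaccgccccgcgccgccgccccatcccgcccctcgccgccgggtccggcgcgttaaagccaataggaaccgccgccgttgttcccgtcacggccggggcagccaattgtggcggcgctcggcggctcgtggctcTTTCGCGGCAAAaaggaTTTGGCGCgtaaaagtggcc
E2F2, chr1:23531234-23531483, minus strand: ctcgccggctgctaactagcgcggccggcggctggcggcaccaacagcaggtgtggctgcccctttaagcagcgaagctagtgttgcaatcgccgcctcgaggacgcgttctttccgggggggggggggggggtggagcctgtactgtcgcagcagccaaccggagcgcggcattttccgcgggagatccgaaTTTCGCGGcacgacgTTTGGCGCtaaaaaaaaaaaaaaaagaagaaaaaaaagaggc
E2F3, chr6:20401629-20401878, plus strand: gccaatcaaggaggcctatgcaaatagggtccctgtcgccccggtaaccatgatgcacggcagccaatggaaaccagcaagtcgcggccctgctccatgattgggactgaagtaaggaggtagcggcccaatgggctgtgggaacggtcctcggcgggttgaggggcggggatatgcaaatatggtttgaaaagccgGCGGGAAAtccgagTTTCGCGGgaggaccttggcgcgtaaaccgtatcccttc
RBL1, chr20:37095998-37096247, minus strand: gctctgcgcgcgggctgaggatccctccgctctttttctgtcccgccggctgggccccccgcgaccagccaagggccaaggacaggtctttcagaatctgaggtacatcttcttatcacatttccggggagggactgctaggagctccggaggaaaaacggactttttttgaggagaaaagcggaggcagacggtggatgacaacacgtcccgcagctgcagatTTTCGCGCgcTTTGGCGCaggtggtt
E2F4, chr16:67191905-67192154, plus strand: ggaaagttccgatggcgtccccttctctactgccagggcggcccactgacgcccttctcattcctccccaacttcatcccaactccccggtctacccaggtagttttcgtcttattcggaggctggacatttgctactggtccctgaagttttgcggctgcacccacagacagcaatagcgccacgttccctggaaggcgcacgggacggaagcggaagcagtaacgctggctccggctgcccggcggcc
E2F6, chr2:11466162-11466411, minus strand: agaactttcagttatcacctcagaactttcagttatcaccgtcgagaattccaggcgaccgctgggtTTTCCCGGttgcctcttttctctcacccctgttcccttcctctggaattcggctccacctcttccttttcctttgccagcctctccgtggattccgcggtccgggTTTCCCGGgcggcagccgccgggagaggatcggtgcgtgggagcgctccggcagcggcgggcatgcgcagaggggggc
In E2F1, TTTCGCGG overlaps TTTGCCGC on the other strand, and TTTGGCGC follows. In E2F2, TTTCGCGG is followed by TTTGGCGC. In E2F3, TTTCCCGC on the other strand precedes TTTCGCGG. RBL1 holds TTTCGCGC and TTTGGCGC, and E2F6 holds TTTCCCGG at both places.

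Levels were compared between genes as CPM per kilobase of exon. In WT cells at day 0, E2F4 was the highest member at 29.4 ± 1.35 CPM per kilobase (SD, n = 3), followed by E2F1 at 17.6 ± 2.46, RB1 at 13.5 ± 1.42, E2F6 at 8.29 ± 0.328, E2F3 at 7.11 ± 0.520 and RBL1 at 4.68 ± 0.269. E2F8, E2F2, E2F7 and E2F5 came last, the lowest at 1.77 ± 0.326 CPM per kilobase. The ranges of 2 of the 9 neighbouring pairs overlapped, E2F1 with RB1 and E2F7 with E2F5. At day 4, between 3 and 7 of the 9 neighbouring pairs overlapped, the most in UHRF1-AID cells. E2F4 kept the highest mean in 7 groups, and E2F6 exceeded it in double-degron cells at day 4, where the ranges of the genes overlapped.

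**Figure D1:**
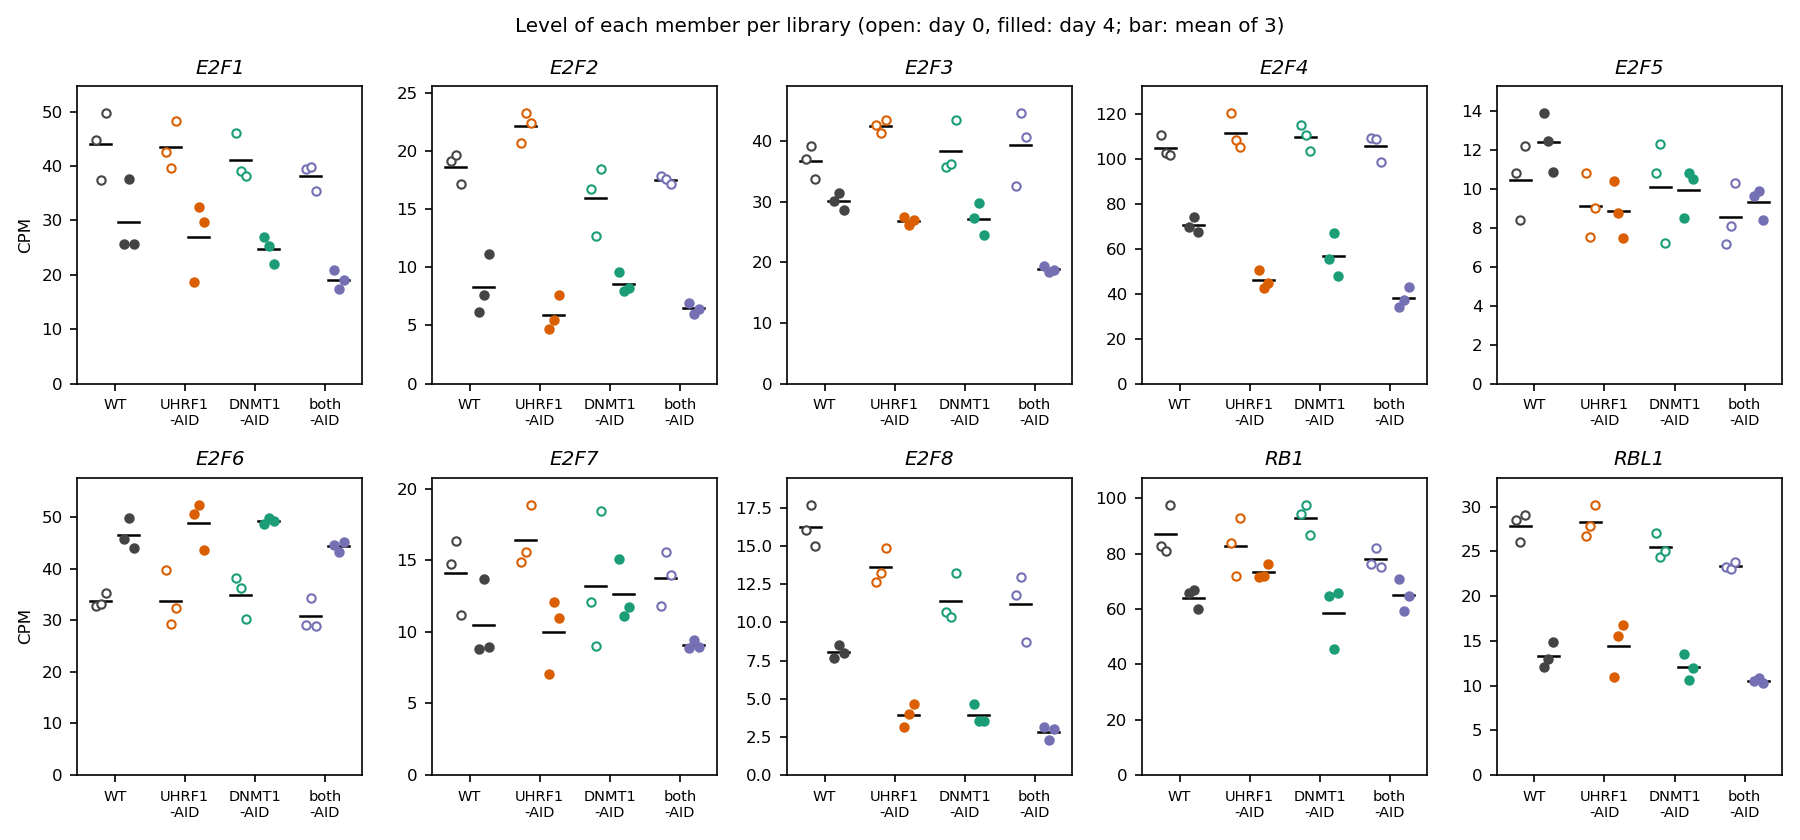
Level of each of the 10 members in CPM (linear axis from 0) in the 24 libraries, by line (x axis), with day 0 as open and day 4 as filled points and the mean of 3 libraries as a bar. E2F4 sits between 98.6 and 121 CPM in all day 0 libraries and between 34.1 and 74.3 CPM in all day 4 libraries, whereas E2F6 is higher in each line at day 4.

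At day 0, before auxin, no member passed the test between a degron line and WT. Of the 10 members, edgeR's quasi-likelihood test called 0 in each line, with 0, 1 and 2 at an unadjusted p under 0.05 in UHRF1-AID, DNMT1-AID and double-degron cells and 0 by DESeq2. Across all genes tested, 0% were called in the UHRF1-AID line, 0.00723% in the DNMT1-AID line and 3.64% in double-degron cells. E2F8 stood lower in the libraries of every degron line than in every WT library, at −0.25, −0.54 and −0.56 on the log2 scale (adjusted p = 0.942, 0.801 and 0.121, edgeR). RBL1 in double-degron cells was also below the WT range, at −0.27 (adjusted p = 0.174, edgeR). Without WT day 0 replicate 3 both genes passed in that line (E2F8 −0.64, adjusted p = 0.00639, and RBL1 −0.27, adjusted p = 0.0372, edgeR). In UHRF1-AID cells E2F2 and E2F3 lay above the WT range, at 0.25 and 0.22 (adjusted p = 0.942 for each, edgeR). The share of all genes with ranges apart was not counted, so these ranges are only described.

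Between day 0 and day 4 most members fell in every line, WT included. The test called 7 members in WT, 8 in the UHRF1-AID line, 8 in the DNMT1-AID line and 9 in double-degron cells (70%, 80%, 80% and 90% of the members), where 35.6%, 49.4%, 40.4% and 67.8% of all genes tested were called. E2F1, E2F2, E2F4, E2F8 and RBL1 fell in all 4 lines, E2F6 rose in all 4, and E2F5 was called in none. In these bulk libraries, fewer cells that transcribe a gene and less of its RNA per cell cannot be told apart.

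E2F1 (ENSG00000101412, chr20:33675683-33686404, minus strand), the activator best known for driving S phase entry, was at 44.7, 37.5 and 49.7 CPM in WT cells at day 0 and at 25.6, 37.6 and 25.7 CPM at day 4. In UHRF1-AID cells the values were 42.6, 39.7 and 48.2 CPM, then 18.7, 32.5 and 29.7 CPM. In DNMT1-AID cells they were 46.0, 39.0 and 38.1 CPM, then 27.0, 25.3 and 22.02 CPM. The days overlapped in WT cells only, where 1 day 4 library lay just above the lowest day 0 library. In double-degron cells E2F1 went from 39.5, 39.8 and 35.3 CPM to 20.8, 17.3 and 19.1 CPM, the lowest mean of the 8 groups. The day effect was −0.56 ± 0.18 (log2 fold change ± SE, adjusted p = 0.0358, edgeR) in WT, −0.66 ± 0.20 (0.0208) in the UHRF1-AID line, −0.71 ± 0.14 (0.00266) in the DNMT1-AID line and −0.96 ± 0.10 (1.17e-07) in double-degron cells. The WT call was lost without WT day 0 replicate 1 (−0.55) or 3 (−0.48) or WT day 4 replicate 1 (−0.46) or 3 (−0.46), and the UHRF1-AID call without its day 0 replicate 3 (−0.60).

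E2F2 (ENSG00000007968, chr1:23506430-23531220, minus strand) showed the steepest decline of the activators in UHRF1-AID cells, from 20.7, 23.3 and 22.5 CPM at day 0 to 4.68, 5.50 and 7.61 CPM at day 4. WT cells went from 19.2, 19.7 and 17.2 CPM to 6.19, 7.64 and 11.1 CPM. No day 4 library reached the lowest day 0 library of its line, and the same held in both other lines. The day effect was −1.88 ± 0.20 in UHRF1-AID cells (adjusted p = 9.86e-05, edgeR), 3.67-fold lower at day 4. It was −1.16 ± 0.23 in WT cells (0.00486), −0.88 ± 0.20 in DNMT1-AID cells (0.00526) and −1.40 ± 0.13 in double-degron cells (3.16e-08).

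E2F3 (ENSG00000112242, chr6:20401906-20493715, plus strand) fell in the 3 degron lines. Double-degron cells went from 32.6, 44.7 and 40.7 CPM to 19.5, 18.4 and 18.8 CPM, a difference of −1.01 ± 0.11 (adjusted p = 1.74e-07, edgeR). The effects in UHRF1-AID and DNMT1-AID cells were smaller, −0.64 ± 0.11 (0.00151) and −0.48 ± 0.14 (0.0193), and the second was lost without DNMT1-AID day 4 replicate 1 (−0.48) or 3 (−0.40). In WT cells the value was −0.28 (adjusted p = 0.0875, edgeR), and it passed without WT day 0 replicate 3 (−0.35).

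E2F4 (ENSG00000205250, chr16:67192169-67198918, plus strand), the main repressor of resting and early G1 cells, fell in every line. WT cells held 111, 103 and 102 CPM at day 0 and 69.8, 74.3 and 67.6 CPM at day 4. UHRF1-AID cells held 121, 109 and 106 CPM, then 50.6, 42.6 and 44.7 CPM. DNMT1-AID cells held 115, 111 and 104 CPM, then 55.6, 67.1 and 48.1 CPM. All day 4 libraries lay below all day 0 libraries, and those of UHRF1-AID cells lay below those of WT cells. Double-degron cells held 109, 109 and 98.6 CPM, then 34.1, 37.1 and 43.2 CPM. The day effect was −0.57 ± 0.10 in WT (adjusted p = 0.00282, edgeR), −1.26 ± 0.12 in the UHRF1-AID line (5.61e-05), −0.93 ± 0.14 in the DNMT1-AID line (0.000459) and −1.43 ± 0.09 in double-degron cells (2.62e-10), which is 2.69-fold lower.

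E2F6 (ENSG00000169016, chr2:11444375-11466177, minus strand) moved the other way. WT cells rose from 32.8, 33.1 and 35.2 CPM to 45.7, 49.7 and 44.1 CPM. Double-degron cells rose from 29.1, 34.3 and 28.8 CPM to 44.6, 43.3 and 45.1 CPM. In both lines every day 4 library exceeded every day 0 library, as in the other two. The day effect was 0.47 ± 0.11 in WT (adjusted p = 0.0099, edgeR), 0.56 ± 0.15 in the UHRF1-AID line (0.013), 0.52 ± 0.13 in the DNMT1-AID line (0.00888) and 0.57 ± 0.09 in double-degron cells (1.42e-05). The UHRF1-AID call was lost without its day 0 replicate 2 (0.46) or 3 (0.51). E2F5 (ENSG00000133740), a repressor that pairs mainly with RBL2, lay between 7.18 and 13.9 CPM in the 24 libraries. Its value is uncertain, because 1102 of its 5928 exon bases (18.6%) overlap genes on the opposite strand and the library kit keeps no strand.

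Of the atypical repressors, E2F8 (ENSG00000129173, chr11:19224063-19241620, minus strand) fell in all lines and E2F7 (ENSG00000165891, chr12:77021247-77065580, minus strand) in some. E2F8 was at 16.05, 17.7 and 14.98 CPM in WT cells at day 0 and at 7.65, 8.55 and 7.997 CPM at day 4. In UHRF1-AID cells it went from 12.6, 13.2 and 14.9 CPM to 3.12, 4.02 and 4.64 CPM, and in DNMT1-AID cells from 10.7, 10.4 and 13.2 CPM to 4.64, 3.56 and 3.51 CPM. The lowest values were those of double-degron cells at day 4, 3.13, 2.28 and 3.04 CPM (51, 36 and 51 counts), after 11.8, 13.0 and 8.74 CPM at day 0. No degron library at day 4 reached the lowest WT library of that day. The day effect was −1.01 ± 0.15 in WT (adjusted p = 0.00137, edgeR), −1.77 ± 0.20 in the UHRF1-AID line (0.000138), −1.53 ± 0.22 in the DNMT1-AID line (0.000412) and −1.94 ± 0.20 in double-degron cells (1.04e-07), 3.84-fold lower. E2F7 lay between 7.07 and 18.9 CPM in all libraries. It fell in UHRF1-AID cells (−0.69 ± 0.22, adjusted p = 0.0246, edgeR), a call lost without their day 0 replicate 2 (−0.73) or 3 (−0.60), and in double-degron cells (−0.56 ± 0.14, 0.00145). In WT cells the value was −0.43 (adjusted p = 0.165, edgeR), past the test without WT day 0 replicate 3 (−0.57).

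The pocket protein genes differed from each other. RBL1 (ENSG00000080839, chr20:36996349-37095995, minus strand) went from 28.5, 26.1 and 29.1 CPM in WT cells to 12.1, 12.9 and 14.9 CPM, and from 23.2, 23.01 and 23.8 CPM in double-degron cells to 10.5, 10.9 and 10.3 CPM. Every day 4 library lay below every day 0 library. The decline was −1.06 ± 0.14 in WT (adjusted p = 0.000848, edgeR), −0.95 ± 0.18 in the UHRF1-AID line (0.00198), −1.06 ± 0.16 in the DNMT1-AID line (0.000514) and −1.10 ± 0.11 in double-degron cells (6.53e-08). RB1 (ENSG00000139687, chr13:48303726-48599436, plus strand) went from 82.7, 80.8 and 97.6 CPM to 65.9, 66.7 and 59.8 CPM in WT cells, and from 83.8, 71.9 and 92.7 CPM to 71.7, 71.9 and 76.3 CPM in UHRF1-AID cells. The days overlapped in UHRF1-AID but not in WT cells. The fall of RB1 was −0.44 ± 0.11 in WT (adjusted p = 0.0141, edgeR), a call lost without WT day 4 replicate 1 (−0.44) or 3 (−0.37), and −0.64 ± 0.15 in DNMT1-AID cells (0.00681). In double-degron cells RB1 also fell (−0.22 ± 0.08, 0.0252, edgeR), a call lost without replicate 2 of either day (−0.20 at day 0 and −0.17 at day 4) and after a gene length trend was removed (−0.08). In UHRF1-AID cells the value was −0.15 (adjusted p = 0.31, edgeR).

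**Figure D2:**
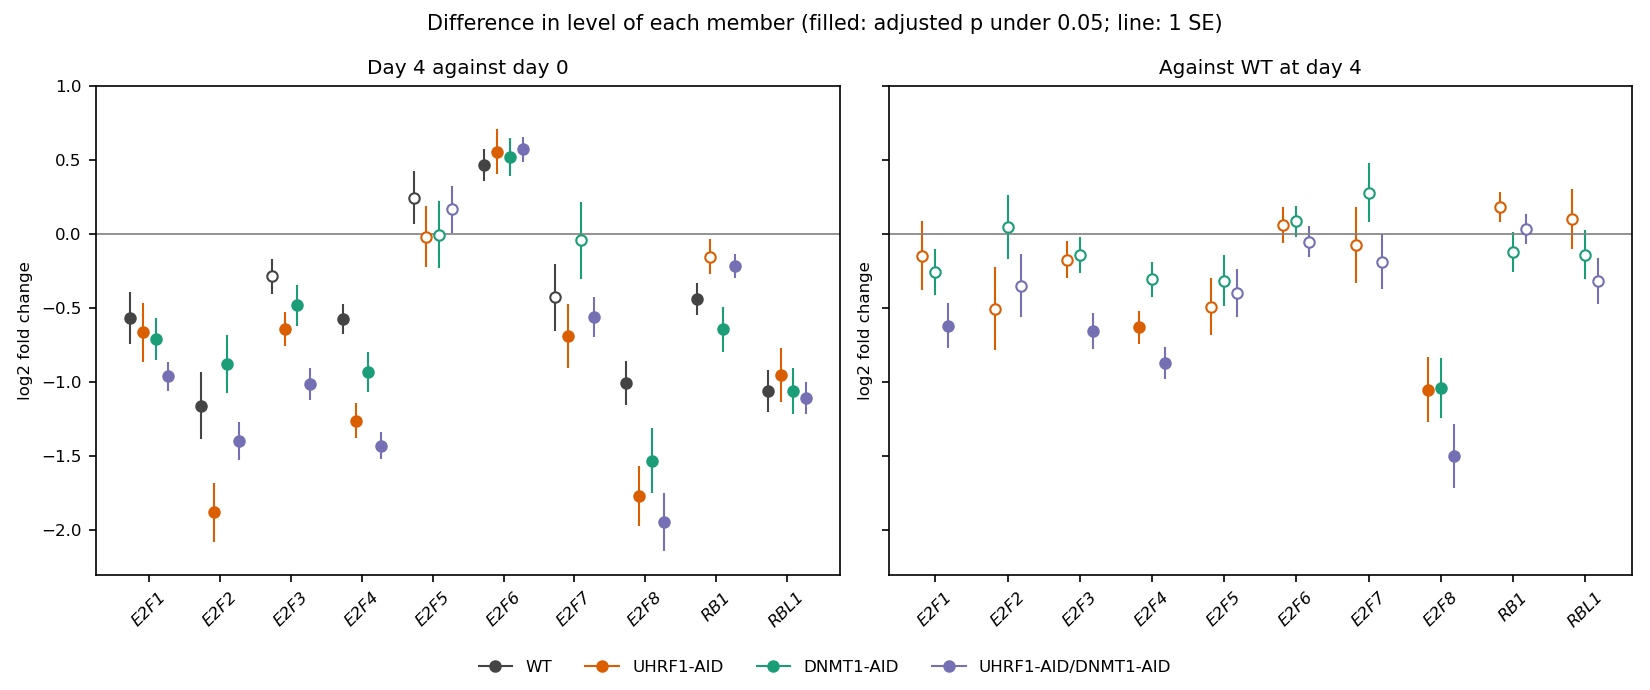
Log2 fold change of each member (y axis) with 1 standard error, for day 4 against day 0 within each line and for each degron line against WT at day 4, with lines by colour and filled points where the adjusted p was under 0.05. E2F6 is above 0 in all 4 lines between the days, at 0.47 to 0.57, and E2F8 has the lowest value among the members in each comparison with WT, down to −1.499.

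At day 4, the loss of UHRF1, DNMT1 or both was compared with WT cells under the same drugs. E2F8 was lower than in WT in each degron line, E2F4 in UHRF1-AID and double-degron cells, and E2F1 and E2F3 in double-degron cells. No member was called higher. The test called 2 of 10 members in the UHRF1-AID line, 1 in the DNMT1-AID line and 4 in double-degron cells, against 17.4%, 7.95% and 38.2% of all genes tested, so the number of members called was close to the background in each.

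E2F8 averaged 8.07 ± 0.451 CPM in WT (SD, n = 3), 3.93 ± 0.764 in the UHRF1-AID line, 3.90 ± 0.636 in the DNMT1-AID line and 2.82 ± 0.469 in double-degron cells. The log2 fold change from WT was −1.05 ± 0.22 (adjusted p = 0.011, edgeR), −1.04 ± 0.20 (0.00525) and −1.499 ± 0.21 (1.27e-05), or 2.07-fold, 2.06-fold and 2.83-fold lower. Without WT day 4 replicate 2 the DNMT1-AID value was −0.996 with an adjusted p of 0.0513. E2F4 averaged 70.6 ± 3.44 CPM in WT, 46.0 ± 4.13 in the UHRF1-AID line, 56.9 ± 9.59 in the DNMT1-AID line and 38.1 ± 4.63 in double-degron cells. It was lower in UHRF1-AID cells, at −0.63 ± 0.11 (adjusted p = 0.00499, edgeR, 1.55-fold) and −0.87 ± 0.11 in double-degron cells (2.56e-06, 1.83-fold). In DNMT1-AID cells the value was −0.31 (adjusted p = 0.127, edgeR), and −0.44 (0.0265) without DNMT1-AID day 4 replicate 2.

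Of the activators, E2F1 averaged 29.6 ± 6.85 CPM in WT and 19.1 ± 1.74 CPM in double-degron cells, a difference of −0.62 ± 0.15 (adjusted p = 0.00308, edgeR, 1.53-fold). E2F3 averaged 30.1 ± 1.43 and 18.9 ± 0.535 CPM in the same groups, a difference of −0.65 ± 0.12 (0.000208, 1.57-fold), with no overlap. In the lines that lost a single protein, E2F1 was at −0.14 and −0.25 and E2F3 at −0.17 and −0.14, none past the test. E2F2 was at −0.50 in UHRF1-AID (adjusted p = 0.241, edgeR) and −0.35 in double-degron cells (0.205). Of the repressors, E2F6 stood at 0.06, 0.09 and −0.05 in the 3 lines, and the 95% confidence interval in double-degron cells ran from −0.25 to 0.15. E2F5 stood at −0.49, −0.31 and −0.40 (adjusted p = 0.106, 0.275 and 0.0615, edgeR), the last at 0.0193 without WT day 4 replicate 3. Of the pocket protein genes, RB1 stood at 0.18 in UHRF1-AID cells (adjusted p = 0.248, edgeR) and RBL1 at −0.32 in double-degron cells (0.114).

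Whether the change over the 4 days itself differed from that of WT was tested by interaction terms over all 24 libraries, where 5.62% of genes were called for UHRF1-AID, 0.401% for DNMT1-AID and 11.1% for double-degron cells. The test called 1, 0 and 3 of the members. For DNMT1-AID cells, 2 members had an unadjusted p under 0.05 and DESeq2 called 0. E2F4 fell more than in WT in UHRF1-AID cells, at −0.74 ± 0.16 (adjusted p = 0.00667, edgeR), and in double-degron cells, at −0.86 ± 0.16 (0.00128). In the latter line E2F3 (−0.74 ± 0.16, 0.00391) and E2F8 (−0.95 ± 0.26, 0.0192) also fell more than in WT, and the E2F8 call was lost without double-degron replicate 2 of day 0 (−0.84) or day 4 (−0.77). E2F8 in UHRF1-AID cells was at −0.82 (adjusted p = 0.0551, edgeR) and in DNMT1-AID cells at −0.53 (0.29). E2F2 in UHRF1-AID cells was at −0.77 (0.0903, edgeR). E2F1, which was called against WT at day 4 in double-degron cells, was at −0.40 ± 0.24 in that line (adjusted p = 0.315, edgeR). RB1 differed from WT by 0.23, −0.22 and 0.21 (adjusted p = 0.483, 0.525 and 0.489, edgeR). The rise of E2F6 differed from that in WT by 0.03 in UHRF1-AID cells (95% confidence interval −0.29 to 0.35) and by 0.10 in double-degron cells (−0.22 to 0.41).

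Direct comparison of the depleted lines at day 4 asked whether losing both proteins differed from losing DNMT1. Double-degron cells were lower than DNMT1-AID cells for 4 members (20.5% of all genes were called), E2F1 at −0.37 ± 0.12 (adjusted p = 0.0428, edgeR), E2F3 at −0.52 ± 0.12 (0.00392), E2F4 at −0.57 ± 0.12 (0.00347) and E2F7 at −0.47 ± 0.16 (0.043). The count was 2, E2F3 and E2F4, under several other settings, and the E2F1 and E2F7 calls were lost in 5 and 4 of the 6 fits that left out 1 library. E2F8 stood at −0.46 (adjusted p = 0.214, edgeR). Between UHRF1-AID and DNMT1-AID cells 0 members were called by edgeR or DESeq2, 2 had an unadjusted p under 0.05, and 13.9% of all genes were called. E2F4 was at −0.35 (adjusted p = 0.131, edgeR), E2F2 at −0.58 (0.113) and RB1 at 0.28 (0.223). E2F8 differed by −0.03, with a 95% confidence interval from −0.53 to 0.46.

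The activators and repressors were then set against each other as shares of the summed CPM per kilobase of the 8 E2F genes, given as a description without a test. The activators held 38.1 ± 1.599% of the sum in WT, 38.8 ± 2.33% in the UHRF1-AID line, 36.9 ± 1.505% in the DNMT1-AID line and 37.6 ± 0.710% in double-degron cells at day 0 (SD, n = 3). At day 4 they held 34.1 ± 2.14%, 37.0 ± 5.11%, 33.9 ± 1.38% and 33.1 ± 2.10%. The UHRF1-AID libraries were the most spread, at 31.1, 39.5 and 40.4%. The activator sum went from 28.1 to 19.2 CPM per kilobase in WT cells and from 26.1 to 12.5 in double-degron cells, and the repressor sum from 45.6 to 36.8 and from 43.4 to 25.2. Both sums were lower at day 4 in each line, and the activators held a smaller mean share at day 4 than at day 0.

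Within the repressors the make-up shifted from E2F4 to E2F6. E2F4 went from 39.9% to 35.2% of the E2F sum in WT, from 40.7% to 28.0% in UHRF1-AID, from 42.3% to 32.1% in DNMT1-AID and from 42.5% to 28.2% in double-degron cells. E2F6 went from 11.3% to 20.4%, from 10.8% to 26.2%, from 11.8% to 24.6% and from 10.9% to 28.9%. Each E2F6 share was higher and each E2F4 share lower at day 4. The ratio of E2F6 to E2F4 per kilobase lay between 0.234 and 0.304 in the day 0 libraries. At day 4 it was 0.577, 0.589 and 0.574 in WT, 0.880, 1.08 and 0.859 in the UHRF1-AID line, 0.769, 0.653 and 0.902 in the DNMT1-AID line and 1.15, 1.03 and 0.918 in double-degron cells, so every degron library exceeded every WT library. The ratio was not tested or set beside other pairs of genes. E2F6 itself was not called against WT at day 4 in any line. The share of E2F8 went from 5.34% to 3.48% in WT and from 3.86% to 1.80% in double-degron cells.

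**Figure D3:**
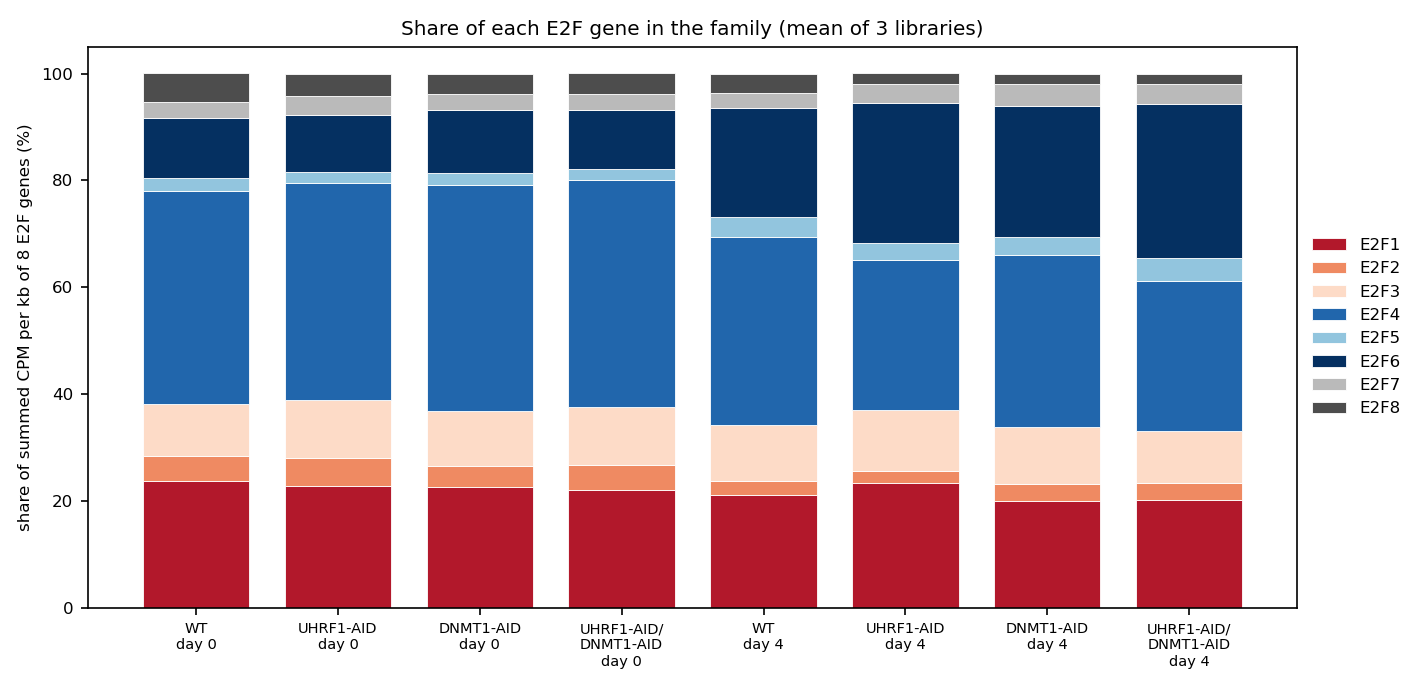
Share of each E2F gene (stacked, by colour) in the summed CPM per kilobase of the 8 E2F genes, in percent, as the mean of 3 libraries per group (x axis, 8 groups). E2F4 shrinks from 39.9 to 42.5% at day 0 to 28.0 to 35.2% at day 4, and E2F6 grows from 10.8 to 11.8% to 20.4 to 28.9%.

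Across the activators, the median log2 fold change from WT at day 4 was −0.17, −0.14 and −0.62 in UHRF1-AID, DNMT1-AID and double-degron cells, and across the 5 repressors it was −0.49, −0.31 and −0.40. The medians over all genes tested were 0.03, 0.00168 and 0.02. Between the days, the activator medians were −0.56, −0.66, −0.71 and −1.01 in WT, UHRF1-AID, DNMT1-AID and double-degron cells, and the repressor medians −0.43, −0.69, −0.04 and −0.56, where the medians over all genes tested were −0.03, 0.02, −0.00772 and 0.02. The repressors include members that moved in opposite directions, and no order of the classes is read from these medians.

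E2F target genes of the G1 to S transition, a list of 22 genes that includes the MCM helicase subunits and enzymes of nucleotide synthesis, were lower and never higher where they passed the test against WT at day 4 or between the days. Of the 22, 8 were lower than WT at day 4 in the UHRF1-AID line, 5 in the DNMT1-AID line and 16 in double-degron cells, and 0 were higher, with median log2 fold changes of −0.47, −0.25 and −0.65. These are 36.4%, 22.7% and 72.7% of the list, where 17.4%, 7.95% and 38.2% of all genes were called in either direction. Between the days 14, 19, 19 and 20 fell in WT, UHRF1-AID, DNMT1-AID and double-degron cells and 0 rose, where 35.6%, 49.4%, 40.4% and 67.8% of all genes were called. The counts for the loss of a single protein changed with the libraries used. In UHRF1-AID cells the count was 3 without WT day 4 replicate 1 and 2 without replicate 2. In DNMT1-AID cells it was 3, 1 and 9 without WT day 4 replicate 1, 2 and 3, and 3 without DNMT1-AID day 4 replicate 2 or 3. In double-degron cells it stayed between 15 and 19. RRM1, the large subunit of ribonucleotide reductase, was lower, at −0.61 (adjusted p = 0.0418, edgeR), −0.67 (0.000995) and −1.09 (3.43e-08), the first call being lost without any 1 of the WT day 4 libraries (−0.59, −0.59 and −0.68). MCM2, a subunit of the MCM helicase, was lower at −0.64 (0.0255, edgeR), −0.43 (0.036) and −0.86 (1.39e-06), the first call being lost without WT day 4 replicate 1 (−0.66) or 2 (−0.56) and the second without WT day 4 replicate 1 (−0.46) or 2 (−0.34) or DNMT1-AID day 4 replicate 2 (−0.38) or 3 (−0.36). GINS1, a subunit of the replicative helicase, was lower in UHRF1-AID cells, at −0.76 (0.014, edgeR), a call lost without WT day 4 replicate 1 (−0.68) or 2 (−0.77).

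**Figure D4:**
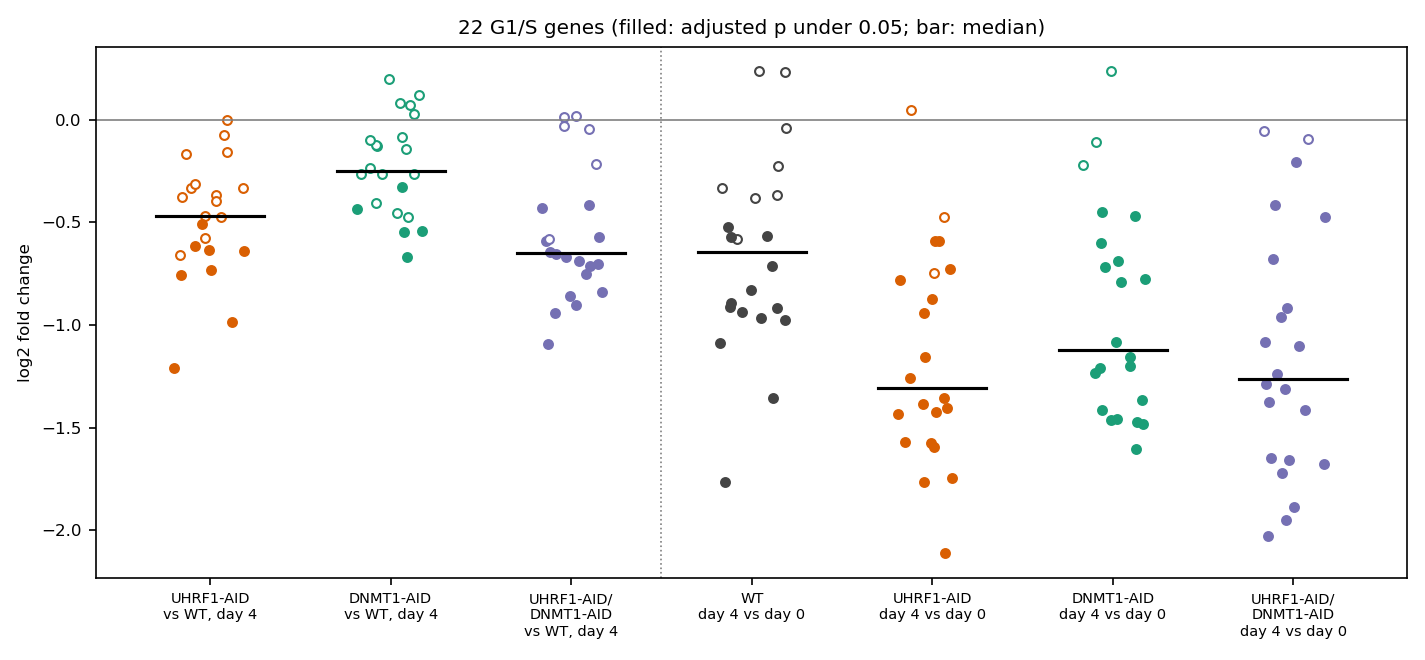
Log2 fold change (y axis) of the 22 G1 to S target genes in 7 comparisons (x axis), with a point per gene, filled where the adjusted p was under 0.05, and a bar at the median. The median in double-degron cells against WT at day 4 is −0.65, and the medians between the days run from −0.65 in WT to −1.31 in UHRF1-AID cells.

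In the interaction tests 7, 0 and 9 of these 22 genes fell more than in WT, where 5.62%, 0.401% and 11.1% of all genes were called. For DNMT1-AID cells 6 had an unadjusted p under 0.05 and DESeq2 called 0, and the count became 4 without WT day 0 replicate 3, 2 without DNMT1-AID day 0 replicate 3 and 1 without UHRF1-AID day 4 replicate 1. The count of 7 became 2 without WT day 0 replicate 2 and 3 without WT day 4 replicate 1 or 2, UHRF1-AID day 0 replicate 3 or UHRF1-AID day 4 replicate 1. The count of 9 became 2 without double-degron day 4 replicate 2, 3 without double-degron day 0 replicate 3, WT day 0 replicate 2 or WT day 4 replicate 2, 4 without double-degron day 0 replicate 2 or day 4 replicate 1, and 5 without WT day 0 replicate 1. Double-degron cells were lower than DNMT1-AID cells at day 4 for 13 of the genes, where 20.5% of all genes were called. The count was 7 without DNMT1-AID day 4 replicate 1.

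Of the 10 cyclins, kinases and CDC25A of G1 and S phase, 9 were tested. In UHRF1-AID cells 1 was higher and 2 lower than in WT at day 4, in DNMT1-AID cells 0 and 2, and in double-degron cells 2 and 5, which is 33.3%, 22.2% and 77.8% of those tested beside 17.4%, 7.95% and 38.2% of all genes. CCNA2, the S phase cyclin A2, was lower in the 3 lines, at −0.89 (adjusted p = 0.0116, edgeR), −0.45 (0.0403) and −0.88 (1.48e-06). CDK4 was lower in the 3 lines as well, at −0.73 (0.0047, edgeR), −0.42 (0.033) and −0.78 (6.56e-06). Both DNMT1-AID calls were lost without WT day 4 replicate 1 (CCNA2 −0.37, CDK4 −0.35) or 2 (−0.48 and −0.38) or DNMT1-AID day 4 replicate 2 (−0.43 and −0.38) or 3 (−0.34 and −0.38). Before auxin CDK4 stood at −0.22, 0.06 and −0.43 against WT in UHRF1-AID, DNMT1-AID and double-degron cells (adjusted p = 0.942, 0.939 and 0.0968, edgeR). The interaction for CDK4 was called in none of them, at −0.52, −0.53 and −0.35 (adjusted p = 0.184, 0.248 and 0.357, edgeR). For CCNA2 it was −0.86, −0.80 and −0.88 (adjusted p = 0.0389, 0.127 and 0.0209, edgeR). CDK6, the other kinase that phosphorylates RB1 with D cyclins, was higher by 0.94 (0.00415, edgeR) in UHRF1-AID and 1.001 (2.91e-07) in double-degron cells. The interaction for CDK6 was not called in UHRF1-AID cells, at 0.96 (adjusted p = 0.121, edgeR). It was called in double-degron cells, at 1.62 (0.0067). Of 7 CDK inhibitors, 1, 0 and 2 were higher and 0, 0 and 2 lower (14.3%, 0% and 57.1% called), and in DNMT1-AID cells 2 had an unadjusted p under 0.05 and DESeq2 called 0. CDKN2D (p19INK4d) was the inhibitor higher in UHRF1-AID cells, by 0.60 (adjusted p = 0.0369, edgeR). In double-degron cells it was higher by 0.56 (adjusted p = 0.00233, edgeR) and CDKN1C (p57) by 0.59 (0.0155). Neither double-degron call held after a gene length trend was removed (0.14 and 0.34). The interaction for CDKN2D was called in neither line, at 0.49 and 0.29 (adjusted p = 0.166 and 0.414, edgeR). The CDKN1C call was also lost without WT day 4 replicate 1 (0.56) or 2 (0.57) or double-degron day 4 replicate 1 (0.45) or 3 (0.50). Some inhibitors already differed before auxin, when 3 of the 7 were lower in double-degron cells than in WT, where 3.64% of all genes were called. CDKN1C was among them at −0.57 (0.0338, edgeR). CDKN2B (p15INK4b) was lower by then at 5.30 ± 1.26 CPM against 27.7 ± 5.12 CPM in WT (−2.41, 0.0064, edgeR). It then rose in double-degron cells to 10.99 ± 0.918 CPM (1.096, 2.75e-05, edgeR) and fell in WT to 15.8 ± 2.47 CPM (−0.81, 0.00866). The interaction for CDKN2B in double-degron cells was not called, at 1.89 ± 0.70 (adjusted p = 0.0946, edgeR). At day 4 it was still lower than in WT, at −0.51 (0.0153, edgeR), a call lost without replicate 2 of WT (−0.38) or of double-degron cells (−0.44) at day 4.

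Partners of the family were counted against WT at day 4 as well, where the share of all genes called was 17.4%, 7.95% and 38.2%. Of the DP genes and RBL2, 0 of 3 were called in UHRF1-AID and DNMT1-AID cells (2 and 1 at an unadjusted p under 0.05, edgeR, and 0 by DESeq2). Both TFDP1, the main DP partner, at −0.39 (adjusted p = 0.00201, edgeR), and RBL2 (p130), at −0.58 (0.000759), were lower in double-degron cells. The interaction in that line was called for neither, at −0.38 (adjusted p = 0.0858, edgeR) and −0.48 (0.0639). The MuvB core joins E2F4 and RBL2 in the DREAM complex and binds B-MYB and FOXM1 later in the cycle. Of 7 of these genes, 1, 0 and 2 were lower and none higher (14.3%, 0% and 28.6%), at or under the share of all genes, with 0 at an unadjusted p under 0.05 and 0 by DESeq2 in DNMT1-AID cells. In double-degron cells these were MYBL2 (B-MYB) at −0.60 (0.000126, edgeR) and LIN9 at −0.63 (0.0101). Their interactions were not called, at −0.46 (adjusted p = 0.304, edgeR) and −0.57 (0.121). Of 11 PRC1.6 partners of E2F6, 2, 0 and 0 were higher and 0, 1 and 2 lower (18.2%, 9.09% and 18.2%), close to or under the share of all genes. RING1, a Polycomb ubiquitin ligase, was higher by 0.49 in UHRF1-AID cells (0.0187, edgeR), a call lost without WT day 4 replicate 1 (0.43) or 3 (0.45) or UHRF1-AID day 4 replicate 3 (0.49). WDR5 at −0.49 (0.000993, edgeR) and the heterochromatin protein gene CBX1 at −0.53 (0.00703) were lower in double-degron cells. The interactions of these genes in that line were called, at −0.60 (adjusted p = 0.00997, edgeR) and −0.49 (0.0469).

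Of 5 germline genes bound by E2F6, TUBA3D, a testis tubulin gene, passed the filter on low counts against WT at day 4 in UHRF1-AID and double-degron cells, and none of the 5 did in DNMT1-AID cells. It had 2, 0 and 0 counts in WT libraries at day 4, 28, 68 and 54 in the UHRF1-AID line, 1, 2 and 4 in the DNMT1-AID line and 246, 264 and 354 in the double-degron line. Because it passed the filter only through the groups in which it was high, no test is given. Its near-identical copies make the assignment of these reads uncertain.

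The genes whose 8 group means were most like those of a member were ranked over 15636 genes by the root mean square difference of the centred log2 CPM. For E2F1 these were PDCD7 at 0.0442, ACACA at 0.05 and ZNF689 at 0.0567, where the median over genes was 0.509. For E2F7 they were PLEKHA2 at 0.0789, PIP4K2A at 0.089 and NACC1 at 0.0904 (median 0.418), and for RB1 CUL2 at 0.0539, UBR7 at 0.0648 and CDKAL1 at 0.065 (median 0.403).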

How the data were processed

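RNA of 24 HCT116 libraries (8 groups of 3) was sequenced. The authors aligned reads with STAR to hg38 and deposited raw counts per gene from featureCounts. The strand setting and the treatment of multiply mapped reads are not given in the sources used here, and the NEBNext Ultra kit keeps no strand. Spike-in sequences (92) were counted in 9 libraries, at 0.891 to 1.65% of counts, and entered neither the library sizes nor the fits. Symbols were matched for 58207 of 58735 identifiers.

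CPM used TMM library sizes, and CPM per kilobase divided by exon length. Groups were compared with edgeR 4.0.16 (R 4.3.3) by its robust quasi-likelihood test after filterByExpr, with Benjamini-Hochberg adjustment over all genes tested, with genes called at 0.05 whatever their fold. Each fit held the 6 libraries compared, and interaction terms were fitted on all 24 (15699 genes). Values after ± are SE for fold changes and SD for levels. Confidence intervals are at 95%. The fits were run on simulated counts with the same spread for all genes and no folder or length trend. That run does not show how they behave on these libraries. Replicates differed by more than sampling noise (chi-square per degree of freedom 3.52 to 59.2 over 24 pairs), and none were merged.

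Replicate numbers were taken to pair libraries where all 3 same-numbered pairs deviated together with a correlation over 0.1. This held for the day effects of UHRF1-AID (0.175 to 0.324) and double-degron cells (0.113 to 0.118), where a replicate block left 8 and 9 members called, and in no other comparison.

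The 10 members and the gene lists were chosen with earlier results of these data known. Named genes were the members, UHRF1 and DNMT1, up to 3 genes per list with the smallest p in a direction against WT at day 4, and the 3 genes most like E2F1, E2F7 and RB1. Alternatives were RLE scaling, no filter or 10 counts in every library, a length trend removed, DESeq2 1.42.0, a minimum fold of 2, all 24 libraries in a fit, a replicate block and each library left out. Their use on list genes was chosen after seeing the data. Promoter windows came from RefSeq. Python 3.11.15 was used for sequences and figures.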

Additional observations from a re-analysis of the deposited data

Results flagged for a closer look

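The day effect of a degron line differed from that of WT, by an interaction test over all 24 libraries, for 4 results. In UHRF1-AID cells the difference for E2F4 was −0.74 on the log2 scale. In double-degron cells it was −0.74 for E2F3, −0.86 for E2F4 and −0.95 for E2F8. In each the gene fell more between the days than in WT. The UHRF1-AID libraries of both days lie in 1 alignment folder and the WT libraries in a different one on each day, so the UHRF1-AID difference cannot be told apart from the folder. The double-degron and WT libraries share a folder on each day. Against WT at day 4 within a folder, E2F3, E2F4 and E2F8 were also lower in double-degron cells, by −0.65, −0.87 and −1.499.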

How the results depend on the processing

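Of 47 called results on members, 46 kept direction and call under RLE scaling, 47 without a filter, 45 each with 10 counts in every library, the length trend removed and DESeq2, and 40 with a replicate block, and 39 of 43 did in a fit of all 24 libraries. With a minimum fold of 2, the members called were 1 in UHRF1-AID and 1 in double-degron cells against WT at day 4, 3, 3, 2 and 5 between the days in WT, UHRF1-AID, DNMT1-AID and double-degron cells, and 0 between double-degron and DNMT1-AID cells and in the UHRF1-AID and double-degron interactions. Without a filter 1 member was called in double-degron cells at day 0. With the replicate block 4 members were called between the days in WT (E2F1, E2F6 and RB1 at adjusted p = 0.0821, 0.0594 and 0.0678 were lost, edgeR) and 2 between double-degron and DNMT1-AID cells. The block also took E2F3 in DNMT1-AID cells to 0.0501 and the E2F8 interaction in double-degron cells to 0.0523. By the correlation rule above, same-numbered libraries were not taken as paired between the days in WT and DNMT1-AID cells, or between double-degron and DNMT1-AID cells. The labels do not tell whether they were paired. No other count of members moved by over 1.5 times under the block. The comparison of double-degron with DNMT1-AID cells gave 2 with all 24 libraries, 10 counts or DESeq2, that of UHRF1-AID with DNMT1-AID cells 2 with all 24 libraries, and the UHRF1-AID interaction 2 under DESeq2 or without the length trend. The causes were not tested.

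Leaving out 1 library gave 2 to 2, 0 to 2 and 4 to 5 members in UHRF1-AID, DNMT1-AID and double-degron cells against WT at day 4, and 0 to 0, 0 to 0 and 0 to 2 at day 0. It gave 5 to 8, 5 to 8, 7 to 8 and 8 to 9 between the days in WT, UHRF1-AID, DNMT1-AID and double-degron cells, 0 to 0 and 2 to 4 for UHRF1-AID and double-degron against DNMT1-AID cells, and 1 to 3, 0 to 0 and 2 to 3 in the interactions. Values near 0 changed sign, E2F6 in UHRF1-AID cells against WT without their day 4 replicate 2 (all its fits ran from −0.0326 to 0.127), its interaction without UHRF1-AID day 0 replicate 2 (−0.0592) or 3 (−0.01) or day 4 replicate 2 (−0.03, with a highest value of 0.172), and E2F8 between UHRF1-AID and DNMT1-AID cells without replicate 1 of either (0.11 and 0.11, with a lowest value of −0.165). Of 25 called results on list genes, checked under the same alternatives after seeing the data, RLE scaling, no filter, the block and DESeq2 kept 25 each, 10 counts in every library and the length trend removed 23 each, and the fit of all 24 libraries 21. Those lost with 10 counts were MCM2 and CCNA2 in DNMT1-AID cells. The count of G1 to S genes fell from 9 to 4 (10 counts in every library) and 5 (block) in the double-degron interaction and from 5 to 3 (10 counts, or all 24 libraries) for DNMT1-AID cells against WT at day 4, and without a filter it was 3 in place of 0 in the DNMT1-AID interaction. E2F8 at day 4 rests on 36 to 142 counts per library, which limits its precision.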
